A study of Mus musculus with 6 samples.

Results

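The genes described here are 10 members of the BCL2 family of apoptosis regulators, taken by gene symbol from a deposited table of 55401 genes: Bcl2, Bcl2l1, Mcl1, Bax, Bak1, Bid, Bbc3, Bcl2l11, Bmf and Pmaip1. Each symbol matched 1 row, and all 10 passed the filter on low counts, so that all were among the 18218 genes tested. RNA with poly(A) tails came from cultures of primary chondrocytes, the cells that make cartilage, from mouse, in 2 groups of 3 libraries. The design text names the genotypes as Nf2f/f, a floxed allele that both groups carry, and Nf2f/f knockout, and the sample titles name the groups control and Nf2-knockout. Nf2 encodes merlin, a tumour suppressor that activates the Hippo kinases. The cultures were differentiated, and every library name holds the code D7, which the labels do not explain. How Nf2 was deleted, in which exons, and the age and number of the mice are not stated in the labels. For treatment, control libraries are labelled control, whereas the label of the Nf2-knockout libraries names TCF21 overexpression. Tcf21 had 0, 2 and 0 counts in them and 0 in each control. Separate animals or cultures are not stated for the replicates, so p-values reflect the spread among 6 libraries, and that spread may be technical.

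BCL2 family proteins meet at the outer membrane of the mitochondrion and decide whether it stays intact. Guardians (BCL2, BCL-XL from Bcl2l1, and MCL1) hold the membrane closed. Effectors (BAX and BAK) open it when activated, which releases cytochrome c and starts the caspases. BH3-only proteins (BID, PUMA from Bbc3, BIM from Bcl2l11, BMF and NOXA from Pmaip1) sense stress and either neutralise the guardians or activate the effectors. In growth plate cartilage, chondrocyte survival depends on this balance, and BIM and BMF are also known for the death of cells that lose growth factor signals or their hold on matrix.

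Nf2 stood at 87.9, 101 and 97.4 CPM in Nf2-knockout replicates 1 to 3 and at 126, 133 and 122 CPM in the controls (CPM, the count as a share of the library total scaled with TMM factors). Its log2 fold change of Nf2-knockout over control was −0.41 (edgeR adjusted p = 0.0305), a call lost whichever library was left out. Where the deletion lies is unknown, so reads outside it may still be counted. How complete the deletion was cannot be told from these counts. Library totals ran from 50906043 to 63748798 counts, and edgeR called 1693 of 18218 genes (9.29%), with 749 higher and 944 lower in Nf2-knockout libraries. Rises made up 44.2% of these calls, but 61.5% when libraries were scaled by their totals alone and 62.6% by limma on FPKM (fragment counts scaled for transcript length and library depth). The groups also differed in markers of other cells. Of 14 tested macrophage and myeloid markers 6 fell (3 when control replicate 1 was left out, 1 for Nf2-knockout replicate 2 and 0 for each other library). DESeq2 called 10 of them lower and limma on FPKM 4, and 11 had an unadjusted p under 0.05 by edgeR. The log2 fold changes of this list ran from −2.96 to −0.13, with a median of −2.29. Summed levels of this list were 50.1 to 115 CPM in Nf2-knockout and 163 to 439 CPM in control libraries. Its levels per gene differed widely: Lyz2 stood at 8.94 to 136 FPKM and Cd68 at 16.5 to 37.3 FPKM over all libraries. C1qb, the next marker of this list by mean FPKM, was called lower by DESeq2, by limma on FPKM and with library totals alone. Ptprc, a defining leukocyte gene, stood at 0.103 FPKM or less. Of 10 pericyte and smooth muscle markers 3 rose and 1 fell (399 to 691 against 199 to 259 CPM), and of 8 fibroblast markers 3 fell (5517 to 7299 against 9647 to 11956 CPM). The 3 pericyte rises were 3 without any 1 Nf2-knockout library and 2 without any 1 control, and the fall was kept only without Nf2-knockout replicate 2 or control replicate 3. Fibroblast falls numbered 1 without Nf2-knockout replicate 1 or any 1 control, 4 without Nf2-knockout replicate 2 and 5 by DESeq2. Of 15 chondrocyte markers 1 rose and 1 fell (1061 to 1978 against 904 to 1344 CPM), and all 15 were detected. These chondrocyte calls numbered 2 rises without Nf2-knockout replicate 3, 1 fall without Nf2-knockout replicate 2 and 0 without each other library, and 0 by limma on FPKM. Lymphocyte markers summed to at most 0.89 CPM, with 7 of 10 at 0 counts in all libraries, and neutrophil markers to at most 1.42 CPM. Of 8 tested endothelial markers 1 rose (15.3 to 21.8 against 17.1 to 27.2 CPM; 2 of the 6 fits without 1 library), and of 10 osteoblast markers 0 passed by edgeR, with 3 at an unadjusted p under 0.05 and 2 calls by DESeq2 (11458 to 13599 against 11737 to 13959 CPM). The part of these cells in the results below was not tested, and in bulk RNA fewer cells of a type and less RNA per cell cannot be told apart.

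Upstream sequence is shown first for the 6 members with a match to the letters of a known factor of survival signalling, which are in capitals. Bid, Bcl2 and Bak1 held none of the letters searched in the windows of the table, and no window of Pmaip1 was used. Sequences are from RefSeq (GRCm38.p6), which held 16 start sites of 9 of the 10 members, and each run gives the 250 bases before a start site, 5′ to 3′ on the gene's strand. Bcl2l11 is shown before its first start site (chr2:128125788-128126037, plus strand), with the FOXO letters GTAAACA in capitals. Bbc3 is shown before a start site inside the gene and outside its GENCODE exons (chr7:16310011-16310260, plus strand), with the same FOXO letters on the opposite strand. Bmf is shown before a start site inside the gene (chr2:118544588-118544837, minus strand) and Bax before its start (chr7:45466899-45467148, minus strand), each with a match to the p53 decamer. Bcl2l1 is shown before its most upstream start site (chr2:152831729-152831978, minus strand), with the TEAD letters GGAATG, the motif of the factors that act with YAP downstream of merlin and the Hippo kinases. Mcl1 is shown before its start (chr3:95658471-95658720, plus strand), with the TEAD letters on the opposite strand.
Bcl2l11: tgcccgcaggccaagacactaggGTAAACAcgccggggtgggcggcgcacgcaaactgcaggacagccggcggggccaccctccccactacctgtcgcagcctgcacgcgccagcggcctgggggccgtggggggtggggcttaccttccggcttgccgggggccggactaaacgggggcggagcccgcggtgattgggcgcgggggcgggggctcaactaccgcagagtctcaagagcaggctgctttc
Bbc3: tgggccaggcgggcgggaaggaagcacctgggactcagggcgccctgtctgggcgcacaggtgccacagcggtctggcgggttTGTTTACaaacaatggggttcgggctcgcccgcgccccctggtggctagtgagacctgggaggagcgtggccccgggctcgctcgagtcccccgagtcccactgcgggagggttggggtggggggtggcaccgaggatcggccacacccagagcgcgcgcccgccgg
Bmf: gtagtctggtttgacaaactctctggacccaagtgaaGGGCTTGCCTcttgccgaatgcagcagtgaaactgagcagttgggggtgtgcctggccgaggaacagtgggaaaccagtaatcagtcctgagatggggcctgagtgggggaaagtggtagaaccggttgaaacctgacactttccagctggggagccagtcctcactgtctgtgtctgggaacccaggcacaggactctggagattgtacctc
Bax: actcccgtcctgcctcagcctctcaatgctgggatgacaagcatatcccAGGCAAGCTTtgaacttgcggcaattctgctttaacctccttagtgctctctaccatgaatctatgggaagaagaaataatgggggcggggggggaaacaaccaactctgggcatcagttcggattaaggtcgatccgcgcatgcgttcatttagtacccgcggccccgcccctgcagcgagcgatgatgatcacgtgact
Bcl2l1: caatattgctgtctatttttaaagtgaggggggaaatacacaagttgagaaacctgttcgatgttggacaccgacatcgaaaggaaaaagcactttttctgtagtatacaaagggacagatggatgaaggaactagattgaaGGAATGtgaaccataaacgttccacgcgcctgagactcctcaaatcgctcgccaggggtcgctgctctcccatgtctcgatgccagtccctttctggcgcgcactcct
Mcl1: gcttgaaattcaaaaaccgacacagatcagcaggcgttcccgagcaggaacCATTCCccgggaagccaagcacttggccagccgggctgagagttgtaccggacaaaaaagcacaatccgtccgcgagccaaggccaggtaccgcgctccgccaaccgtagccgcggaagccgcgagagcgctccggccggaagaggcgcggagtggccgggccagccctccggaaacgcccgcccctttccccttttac
The patterns searched on both strands of each window of 300 bases (250 before and 50 after a start) were TEAD (GGAATG), FOXO (GTAAACA), CRE (TGACGTCA), AP-1 (TGANTCA) and the p53 decamer by its name, and no match in a member's window overlapped another. Of 32851 such windows of all genes, 14.7% held the TEAD letters, 3.65% the FOXO letters, 1.79% the CRE letters, 7.81% the AP-1 letters and 8.36% the p53 decamer. Among the 16 windows of the members, TEAD letters were found for Bcl2l1 and Mcl1, FOXO letters for Bcl2l11 and Bbc3, and the p53 decamer for Bmf and Bax. Each of these genes had its match in a single window. The percentages count windows, whereas members are named as genes, some with several windows. Of the genes with FOXO letters, Bcl2l11 passed the test given below as lower in Nf2-knockout libraries, and Bbc3 was higher but did not pass. Whether FOXO factors act on either gene here was not tested. A match describes the letters only and is not a measured binding site.

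Within control libraries the members covered a wide range of levels per length, given as FPKM. Bax was the most abundant at 68.1 ± 10.6 FPKM (mean ± SD, n = 3 here and throughout), followed by Mcl1 at 56.8 ± 1.45. Bak1 stood at 26.1 ± 17.7 and Bcl2l1 at 11.3 ± 6.66 FPKM. Bid followed at 9.61 ± 0.996, Bbc3 at 4.94 ± 0.803, Bmf at 4.48 ± 0.955 and Pmaip1 at 3.89 ± 2.76 FPKM. Bcl2l11 stood at 2.83 ± 0.109 FPKM and Bcl2, the founding gene of the family, was lowest at 0.822 ± 0.143. The ranges over libraries of neighbours in this order overlapped for Bak1, Bcl2l1 and Bid, and again from Bbc3 through Bmf and Pmaip1 to Bcl2l11. In Nf2-knockout libraries Bax (104 ± 10.8) and Mcl1 (65.5 ± 3.27 FPKM) again led, Bid (17.4 ± 0.853) stood above Bcl2l1 (15.2 ± 7.44) with overlapping ranges, and Bcl2l11 (1.23 ± 0.16) lay next to Bcl2 (1.05 ± 0.0764), also with overlapping ranges.

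**Figure D1:**
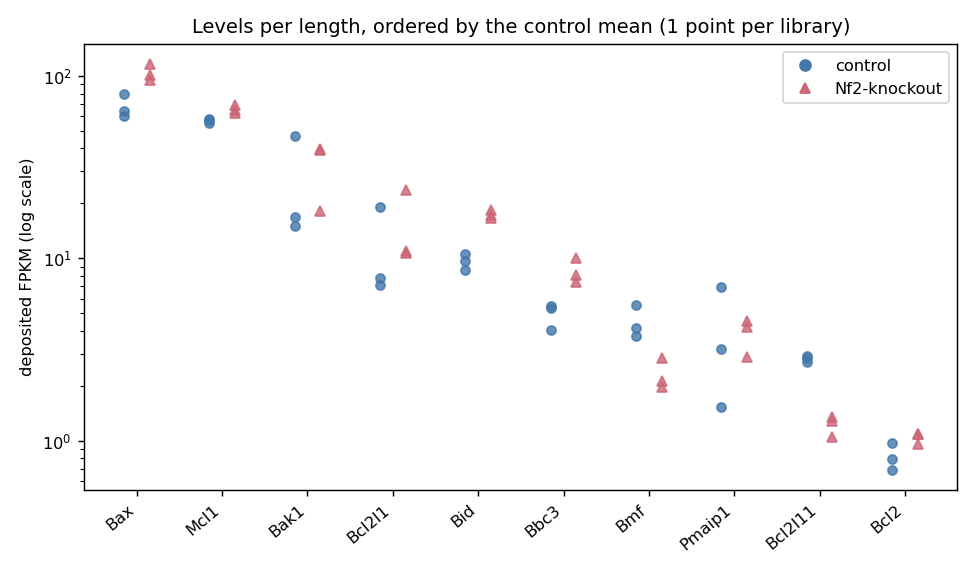
Deposited FPKM of the 10 members (log axis), 1 point per library, with control libraries as circles and Nf2-knockout libraries as triangles, ordered by the control mean. Bax and Mcl1 lie highest and Bcl2 lowest in controls, and the points of Bak1, Bcl2l1 and Pmaip1 spread most within a group.

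Of the 10 members 3 changed by edgeR's quasi-likelihood test with Benjamini-Hochberg adjustment over all genes (2 fell and 1 rose), against 9.29% of all genes tested (5.18% fell and 4.11% rose). The falls were Bcl2l11 and Bmf and the rise was Bid, all BH3-only genes. The CPM of the groups did not overlap for 6 of 10 members, against 32.9% of all genes, and 5 of 10 had an unadjusted p under 0.05, against 24.8%. The median log2 fold change of the members was 0.23, and of all genes −0.01. With 1 library left out, 1 or 2 members rose and 1 or 2 fell.

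The largest change among the members was in Bcl2l11, which encodes BIM, a BH3-only protein that binds every guardian. Bcl2l11 (ENSMUSG00000027381, chromosome 2, 128126038 to 128162547, plus strand, GRCm38 as for the other genes) stood at 26.3, 27.1 and 25.3 CPM in control replicates 1 to 3 and at 9.09, 11.7 and 11.03 CPM in Nf2-knockout replicates 1 to 3. All 3 Nf2-knockout libraries were below 0.5 of the lowest control, and neither group had a library apart from the rest. The mean fell 2.47-fold, from 26.2 ± 0.914 CPM in controls to 10.6 ± 1.34 CPM, a log2 fold change of −1.31 (SE 0.129, adjusted p = 0.00373). The call held in all 6 fits that left out 1 library, with log2 fold changes from −1.38 to −1.19.

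Bmf, which encodes a BH3-only protein that dynein light chain 2 holds at the actin cytoskeleton until it is released, fell with it. Bmf (ENSMUSG00000040093, chromosome 2, 118528757 to 118549687, minus strand) stood at 22.4, 33.6 and 25.4 CPM in controls and at 11.2, 16.1 and 11.9 CPM in Nf2-knockout libraries. Replicate 2 was the highest library of both groups, and the groups did not overlap. Bmf fell 2.08-fold by the fit, with means of 27.1 ± 5.77 CPM in controls and 13.1 ± 2.61 CPM in Nf2-knockout libraries and a log2 fold change of −1.05 (SE 0.203, adjusted p = 0.0229). Leaving out Nf2-knockout replicate 1 or 3 gave adjusted p = 0.0892 or 0.0881, and leaving out control replicate 2 or 3 gave 0.0674 or 0.0542, so these 4 fits lost the call, with log2 fold changes from −1.22 to −0.87 over the 6 fits.

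Bid moved the other way. Its protein links death receptors to mitochondria, since caspase 8 cuts it into an active form. Bid (ENSMUSG00000004446, chromosome 6, 120891930 to 120916853, minus strand) stood at 43.0, 39.5 and 35.3 CPM in controls and at 63.8, 66.1 and 69.1 CPM in Nf2-knockout libraries, with a clear gap between the groups. The mean rose 1.69-fold, from 39.3 ± 3.85 CPM in controls to 66.3 ± 2.67 CPM, a log2 fold change of 0.76 (SE 0.102, adjusted p = 0.00828), and the call held in all 6 fits without 1 library. Bid overlaps Bcl2l13 on the opposite strand, and the labels do not say whether counting used strand. Bcl2l13 itself stood at 41.7 ± 3.17 against 42.4 ± 3.43 CPM (adjusted p = 0.922).

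The remaining BH3-only genes were Bbc3 and Pmaip1, both known targets of p53. Bbc3, which encodes PUMA (ENSMUSG00000002083, chromosome 7, 16308393 to 16318205, plus strand), stood at 13.1, 9.83 and 13.5 CPM in controls and at 22.9, 17.0 and 18.2 CPM in Nf2-knockout libraries. The groups did not overlap, but the test was not passed (log2 fold change 0.68, SE 0.177, adjusted p = 0.0596). Pmaip1, which encodes NOXA, a partner mainly of MCL1 (ENSMUSG00000024521, chromosome 18, 66458533 to 66465565, plus strand), stood at 21.7, 4.84 and 10.1 CPM in controls and at 12.4, 8.52 and 13.1 CPM in Nf2-knockout libraries. The controls alone spanned the whole Nf2-knockout range. Its log2 fold change of −0.11 (SE 0.491, adjusted p = 0.924) was 0.60 when control replicate 1 was left out and 0.06 when Nf2-knockout replicate 2 was.

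**Figure D2:**
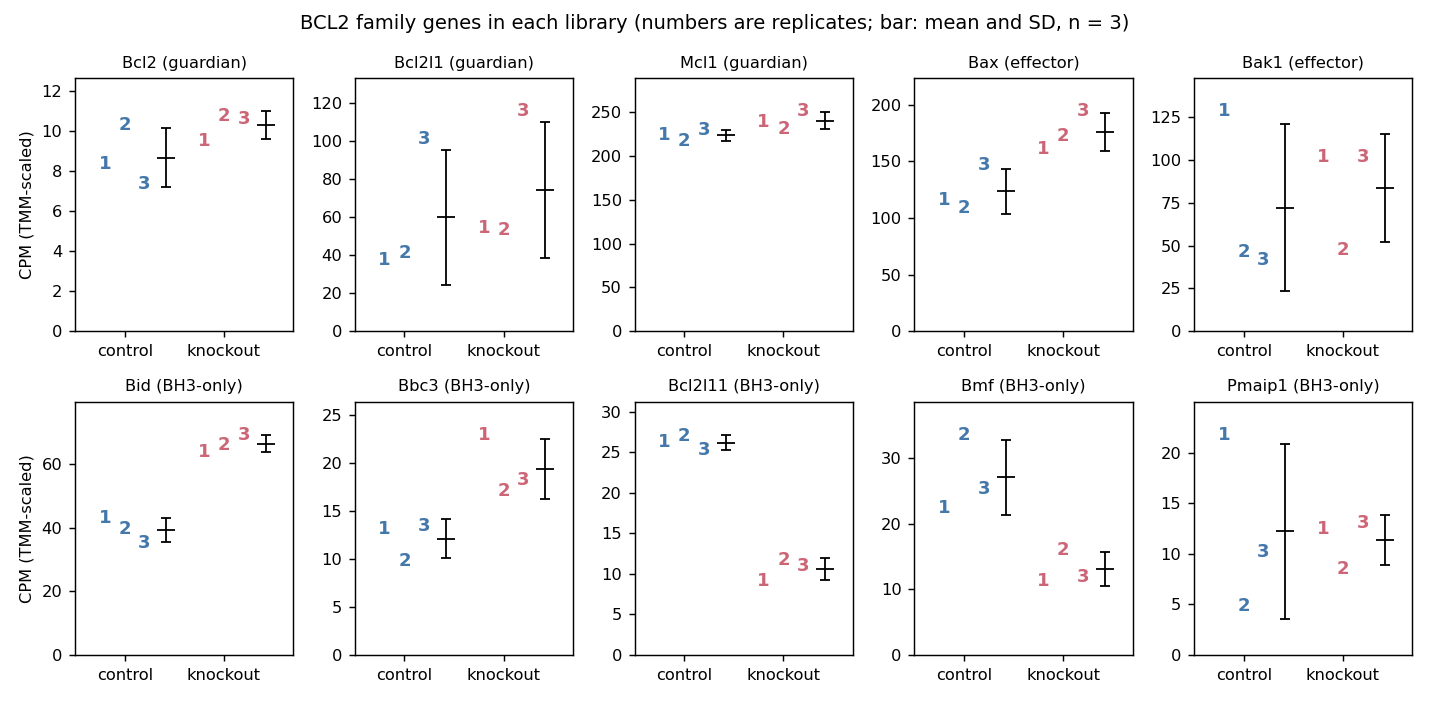
CPM of each member in each library, on a separate axis from 0 for each gene, with replicate numbers as points and black bars for mean and SD (n = 3). The groups are apart for Bid, Bbc3, Bcl2l11, Bmf and Bax and narrowly for Mcl1, while Bcl2l1, Bak1 and Pmaip1 have libraries that stand apart within a group.

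Of the effectors, Bax separated the groups and Bak1 did not. Bax (ENSMUSG00000003873, chromosome 7, 45461697 to 45466898, minus strand) stood at 116, 109 and 146 CPM in controls and at 161, 172 and 194 CPM in Nf2-knockout libraries. Every Nf2-knockout library was above every control, with means of 176 ± 16.7 against 124 ± 19.9 CPM. The log2 fold change of 0.51 (SE 0.134) did not pass (adjusted p = 0.0614), but it passed without control replicate 3, the highest control (0.65, adjusted p = 0.032). Bax and Bbc3 both lay close to the threshold, and their calls depended on the tool and scaling. DESeq2 gave adjusted p = 0.0122 for Bax and 0.0101 for Bbc3, edgeR on library totals alone 0.0336 and 0.0353, and limma on log2(FPKM + 0.1) 0.0438 and 0.0426. With each of these 3 settings 5 of 10 members passed, against 12.8%, 10.1% and 9.16% of all genes. Both stayed higher in Nf2-knockout libraries in all 14 alternatives run.

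Bak1 (ENSMUSG00000057789, chromosome 17, 27019810 to 27029009, minus strand) split into high and low libraries that cut across the groups. It stood at 128 CPM in control replicate 1, 102 in Nf2-knockout replicate 1 and 102 in Nf2-knockout replicate 3. The other libraries held 47.2 (Nf2-knockout replicate 2), 46.5 (control replicate 2) and 41.8 CPM (control replicate 3). The log2 fold change of 0.21 (SE 0.483, adjusted p = 0.838) became −0.03, −0.07 and 0.92 when control replicates 2, 3 and 1, in this order, were left out. Bak1 shares its locus with Ggnbp1 and Gm50253 on the opposite strand. Ggnbp1 held 121 to 167 counts per library against 2385 to 7617 of Bak1. Gm50253 had few counts but ran opposite to the Bak1 split. Where Bak1 was high, its counts were 40 (control replicate 1), 16 (Nf2-knockout replicate 1) and 50 (Nf2-knockout replicate 3). Where Bak1 was low, they were 102 (Nf2-knockout replicate 2), 122 (control replicate 2) and 94 (control replicate 3). Whether the counts of Gm50253 and Bak1 are linked was not tested.

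The guardians showed no change that passed the test. Mcl1, the guardian with the shortest-lived protein (ENSMUSG00000038612, chromosome 3, 95658788 to 95663176, plus strand), stood at 224, 217 and 230.2 CPM in controls and at 239, 231 and 251 CPM in Nf2-knockout libraries. The lowest Nf2-knockout library lay just above the highest control, and the log2 fold change was 0.10 (SE 0.0757, adjusted p = 0.463). Bcl2 (ENSMUSG00000057329, chromosome 1, 106538178 to 106714274, minus strand) stood at 8.37, 10.3 and 7.37 CPM in controls and at 9.50, 10.8 and 10.6 CPM in Nf2-knockout libraries, with overlap (log2 fold change 0.25, SE 0.169, adjusted p = 0.427).

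Bcl2l1, which encodes BCL-XL (ENSMUSG00000007659, chromosome 2, 152780668 to 152831728, minus strand), was set apart by replicate 3 in both groups. It stood at 37.7, 41.3 and 101 CPM in control replicates 1 to 3 and at 54.6, 53.1 and 116 CPM in Nf2-knockout replicates 1 to 3. Within each group replicate 3 was over 2-fold above the others. The log2 fold change of 0.31 (SE 0.457, adjusted p = 0.734) was −0.15 when the high Nf2-knockout library was left out and 0.91 when the high control was, and neither fit passed.

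**Figure D3:**
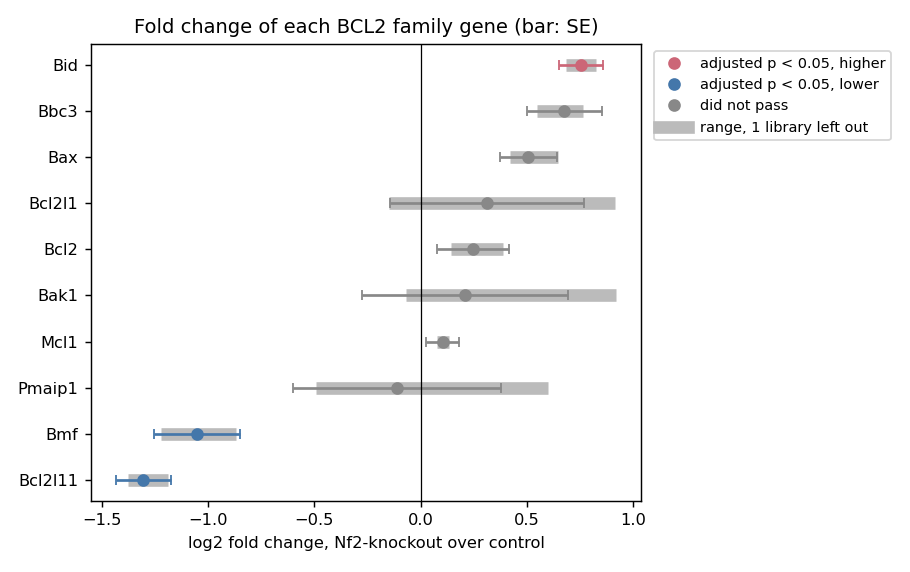
Log2 fold change of each member (points, with SE bars) and the range of that value over the 6 fits that left out 1 library (grey). The ranges of Bcl2l11 and Bmf lie below 0 and that of Bid above it. Those of Bax, Bbc3, Bcl2 and Mcl1, which did not pass the main test, also lie above 0. The ranges of Bcl2l1, Bak1 and Pmaip1 include 0.

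FPKM summed by role shows where these differences lay. The guardians summed to 65.1, 64.1 and 77.8 FPKM in controls and to 76.6, 74.6 and 94.0 FPKM in Nf2-knockout libraries, with overlap, and Mcl1 held 73.6% to 87.8% of the sum. Both effectors together summed to 111, 76.8 and 94.997 FPKM in controls and to 134, 119.6 and 156 FPKM in Nf2-knockout libraries, without overlap. The BH3-only genes summed to 29.4, 23.7 and 24.1 FPKM in controls and to 33.9, 31.7 and 34.3 FPKM in Nf2-knockout libraries. Their makeup differed between the groups: Bid held 37.4% ± 2.91 of the BH3-only sum in controls and 52.3% ± 2.77 in Nf2-knockout libraries, Bmf 17.8% ± 5.41 and 6.99% ± 1.68, and Bcl2l11 11.1% ± 1.33 and 3.69% ± 0.58. The log2 FPKM ratio of Bax to Bcl2, often read as a balance of death and survival, was 6.33, 5.94 and 6.85 in controls and 6.63, 6.54 and 6.73 in Nf2-knockout libraries. The 3 Nf2-knockout values lay inside the control range. The log2 ratio of Bcl2l11 to Mcl1, a guardian that BIM binds, was −4.33 ± 0.0909 in controls and −5.75 ± 0.205 in Nf2-knockout libraries, without overlap. The log2 ratios of Bax and Bid to Mcl1 went the other way, also without overlap. For Bax the ratio was 0.249 ± 0.186 in controls and 0.662 ± 0.101 in Nf2-knockout libraries. For Bid it was −2.57 ± 0.169 in controls and −1.91 ± 0.0478 in Nf2-knockout libraries. Sums and ratios of members are given as descriptions, with no test. FPKM were not rescaled with TMM factors here. The median log2 fold change of all genes was 0.09 by limma on FPKM, against −0.01 by the main test. Summed FPKM carry this difference, whereas shares and ratios within a library do not.

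**Figure D4:**
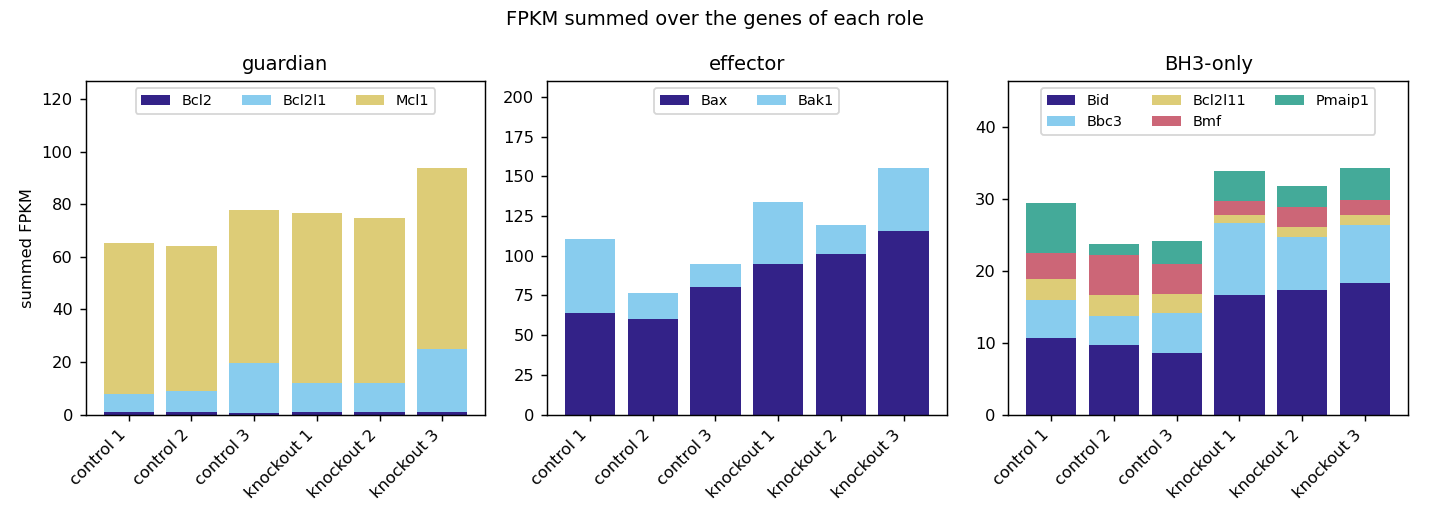
FPKM summed over the genes of each role in each library, stacked by gene from 0, with a separate axis for each role. In the BH3-only panel the Bid and Bbc3 segments are taller and the Bcl2l11 and Bmf segments shorter in the 3 Nf2-knockout libraries.

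Family genes outside the 10 members showed no call by edgeR. Of 16 further BCL2 family genes, 9 were tested and 0 passed, with 3 at an unadjusted p under 0.05, 0 calls by DESeq2 and 1 fall by limma on FPKM (Bcl2a1b). The median of the 9 was −0.04. Bok, which encodes another effector-type protein, stood at 7.15 ± 1.58 against 4.16 ± 1.25 CPM without overlap (log2 fold change 0.78, adjusted p = 0.129). Bcl2a1b, a guardian gene known from leukocytes, stood at 0.312 ± 0.13 against 0.961 ± 0.146 CPM (−1.62, adjusted p = 0.0912), next to the lower macrophage markers given above. Its copies Bcl2a1a and Bcl2a1d are nearly identical, so how counts were split among them is uncertain. Bad, a BH3-only gene controlled by phosphorylation, stood at 44.7 ± 3.49 against 46.2 ± 9.44 CPM (adjusted p = 0.899). The guardian gene Bcl2l2 had 65.3, 20.1 and 61.9 CPM in Nf2-knockout and 57.9, 62.7 and 57.2 CPM in control libraries, so that 1 library, Nf2-knockout replicate 2, stood apart (adjusted p = 0.727). Becn1, an autophagy gene whose protein binds BCL2, had a log2 fold change of 0.20 (adjusted p = 0.198), and Bnip3, which acts in the removal of mitochondria, of −0.53 (adjusted p = 0.269). Bcl2l12, Bnip3l and Bcl2l13 lay between −0.09 and −0.02. Bik, Bcl2l14, Bcl2l15, Bcl2a1a and Bcl2a1d had 0 to 22 counts per library and were not tested. Hrk and Bcl2l10 had 0 counts in all 6 libraries, where 3 counts would be 0.0574 CPM in the library with the highest such limit, a limit for counting error only.

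Downstream of the mitochondrion, genes of the caspase pathway moved in both directions. Of 18 tested genes of the apoptosome, the caspases and their inhibitors, 2 rose and 2 fell, against 4.11% and 5.18% of all genes, with a median of −0.04. Cycs, the gene of cytochrome c, the protein that BAX and BAK release, fell from 359.7 ± 18.4 to 204 ± 39.9 CPM (−0.82, adjusted p = 0.0193, held in 3 of 6 fits without 1 library). The effector caspase gene Casp6 fell by 0.50 on the log2 scale (adjusted p = 0.0387, 0 of 6 fits), and it did not pass by limma on FPKM or with library totals alone. Birc5, the gene of survivin, which acts in both cell division and caspase inhibition, rose from 10.6 ± 1.88 to 21.2 ± 3.58 CPM (1.00, adjusted p = 0.0211, 2 of 6 fits). Htra2, a mitochondrial protease that counters caspase inhibitors, rose by 0.57 (adjusted p = 0.0422, 1 of 6 fits). Leaving out control replicate 3 gave 2 rises and 1 fall, leaving out Nf2-knockout replicate 2 gave 1 of each, leaving out Nf2-knockout replicate 3 gave 1 fall, and the other 3 fits gave 0 calls.

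Upstream of BID, 2 of 13 tested death receptor and adaptor genes rose and 2 fell (4.11% and 5.18% of all genes), with a median of 0.27. Fas, the receptor whose caspase 8 complex cuts BID, rose from 22.8 ± 3.96 to 47.9 ± 6.29 CPM (1.07, SE 0.165, adjusted p = 0.0114), a call held in all 6 fits without 1 library. Its ligand gene Fasl had 0 counts in all libraries, with the same limit as for Hrk. Tnfrsf21, the gene of death receptor 6, fell from 43.8 ± 8.77 to 11.1 ± 2.15 CPM (−1.98, SE 0.202, adjusted p = 0.00413), also held in all 6. The deubiquitinase gene Cyld rose by 0.60 (adjusted p = 0.046) and the TNF receptor gene Tnfrsf1a fell by 0.34 (adjusted p = 0.0474), both in 0 of 6 fits, and Tnfrsf1a did not pass by DESeq2, by limma or with library totals alone. Casp8 itself had a log2 fold change of 0.08 (adjusted p = 0.72).

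Among 14 tested partners at the mitochondrial and endoplasmic reticulum membranes 1 rose and 1 fell (4.11% and 5.18% of all genes), with a median of −0.02. Both were receptors for inositol trisphosphate, calcium channels that BCL2 proteins bind. Itpr1 fell from 110.4 ± 20.5 to 48.0 ± 9.24 CPM (−1.20, adjusted p = 0.0107, 5 of 6 fits) and Itpr3 rose from 94.1 ± 14.2 to 145 ± 7.58 CPM (0.63, adjusted p = 0.0252, 1 of 6 fits). Opa1, which shapes the cristae that hold cytochrome c, had a log2 fold change of −0.29 (adjusted p = 0.0725), and Vdac2, a channel that binds BAK, of −0.24 (adjusted p = 0.116).

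Regulators of the members gave calls in both directions. Of 20 tested transcription factors known to control BCL2 family genes, 1 rose and 2 fell (4.11% and 5.18% of all genes), and 8 had an unadjusted p under 0.05 (24.8% of all genes), with a median of −0.07. Ddit3, the gene of CHOP, which induces BH3-only genes in stress, rose by 0.61 (adjusted p = 0.04, 1 of 6 fits). Mitf, which drives Bcl2 in melanocytes, fell by 0.61 (adjusted p = 0.0174, 2 of 6 fits), and Stat5b, which drives Bcl2l1 in blood cells, by 0.55 (adjusted p = 0.0291, 2 of 6 fits). Stat5b did not pass by limma on FPKM or with library totals alone, and both of these called E2f1. Jun, an AP-1 gene known to drive Bcl2l11 in neurons, had a log2 fold change of −0.40 (adjusted p = 0.0541). By DESeq2, which gave 2 rises and 3 falls in this list, Jun passed as lower. Trp53, the gene of p53, had a log2 fold change of 0.09 (adjusted p = 0.613) and Foxo3, which drives Bcl2l11, of −0.21 (adjusted p = 0.223). Of 21 tested genes whose proteins control the stability or activity of BCL2 proteins, 2 rose and 1 fell, and 7 had an unadjusted p under 0.05, with a median of −0.12. Dynll2, the dynein light chain that tethers BMF, rose from 253 ± 23.3 to 348 ± 20.0 CPM (0.46, adjusted p = 0.0313, 1 of 6 fits). The kinase gene Pim1 rose by 0.65 (adjusted p = 0.0362, 1 of 6 fits), and Rps6ka1, which encodes RSK1, a kinase of the ERK pathway, fell by 1.09 (adjusted p = 0.0211, 2 of 6 fits). Usp9x, whose product protects MCL1 from degradation, had a log2 fold change of −0.33 (adjusted p = 0.115).

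**Figure D5:**
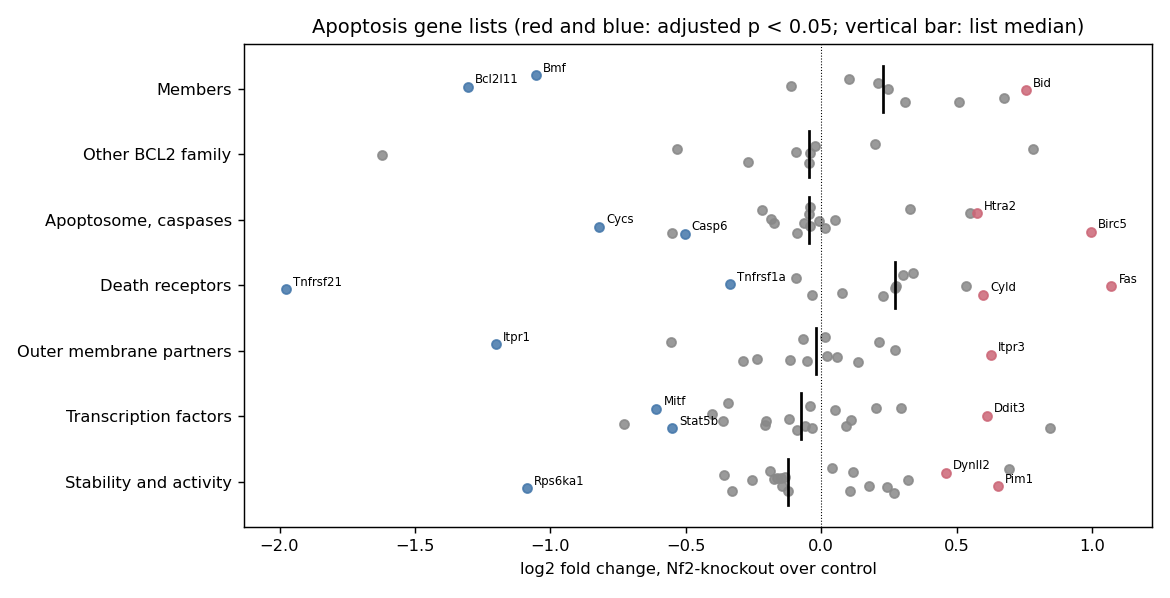
Log2 fold change of every tested gene of the members and of 6 further lists (1 point per gene, black bar for the list median), with genes that passed coloured red (higher) or blue (lower) and named. Calls lie on both sides of 0 in each list that has any, and the list of other family genes has none.

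For the 3 changed members, the genes with the most similar pattern over the 6 libraries were sought among 12074 named genes with a mean FPKM of at least 1, by Pearson's r of log2(CPM + 1). The r values are descriptions, and the shared difference between the groups carries much of each. Nearest to Bcl2l11 were Rgs10 (r = 0.999), Chst15 (0.999) and St6gal1 (0.998). Among the nearest to Bid were the laminin gene Lamb2 (0.997) and Pcmtd1 (0.996), and nearest to Bmf were Fgfrl1 (0.999), Igsf3 (0.998) and Ddx17 (0.997).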

How the data were processed

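RNA-seq of 6 libraries was used, and groups and replicate numbers came from the sample titles. The authors deposited 1 table with a count and an FPKM value per gene and library. Columns were matched to samples by library name. Per the submitters' processing notes, cutadapt 1.9, HISAT2 2.0.4, StringTie 1.3.4d and edgeR were used, with no roles given. How counts were made, the strand setting and the build are not given in the sources used here. Deposited FPKM were counts scaled by the authors for depth and length: count per FPKM varied over libraries by a median CV of 0.043% in 12090 genes, and a count of 0 was written as 0.0001. Positions equalled GENCODE M21 (GRCm38) for 94.2% of 55141 genes and for all 10 members.

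The main test was edgeR 4.0.16 (R 4.3.3; filterByExpr, TMM, glmQLFit and glmQLFTest on group), two-sided, with Benjamini-Hochberg adjustment over 18218 genes and a threshold of 0.05. SEs were computed as the size of the log2 fold change divided by the root of F. Levels between genes are compared as FPKM. Alternatives were DESeq2 1.42.0, other scalings and filters, limma 3.58.1 on FPKM (values of at least 0.1 in 3 libraries), a replicate block and leaving out each library. The members and lists were chosen with earlier results of these data known, and the motifs and printed windows after the values were seen. Named were all members and other family genes, the 4 genes with the smallest p of each further list and the 3 most similar genes of each changed member (1 of them is not reported here); Casp8, Trp53, Foxo3, Fasl and Ptprc were added after their values were seen. Lyz2, Cd68 and C1qb were named for the highest mean FPKM among the macrophage markers. Same-numbered replicates were not taken as pairs.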

Additional observations from a re-analysis of the deposited data

How the results depend on the processing

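Of 140 refits of single members (14 alternatives each), 116 kept the direction and the side of the threshold, 10 of Bax and Bbc3 passed where the main test did not, 5 of Bmf no longer passed and 9 reversed a value that had not passed. Reversed values were −0.15 for Bcl2l1 without Nf2-knockout replicate 3 (range over the 6 libraries left out −0.15 to 0.91), −0.03 and −0.0673 for Bak1 when control replicates 2 and 3 were left out (−0.0673 to 0.92), and for Pmaip1 0.13 with the replicate block, 0.21 by limma on FPKM with or without a filter, 0.13 with a pseudocount of 1, 0.06 without Nf2-knockout replicate 2, and 0.60 if control replicate 1 was left out (−0.49 to 0.60). The number of changed members was 5 by DESeq2, with library totals alone and by limma on filtered FPKM with either pseudocount, against 3. It was 2 by limma on FPKM without a filter (Bcl2l11 and Bid), and 2 or 3 with 1 library left out. The number of changed genes was 2593 by DESeq2 and 1065 by limma without a filter, against 1693, and 629 to 1186 with 1 library left out (629 and 744 for Nf2-knockout replicates 1 and 3, 973 and 705 for control replicates 1 and 2). The replicate block gave 923 genes and 4 members (Bax added, adjusted p = 0.0497). With it Bcl2l1 had an adjusted p of 0.131, against 0.734 by the main test. Deviations of same-numbered libraries from their group means correlated at −0.0723, 0.0337 and 0.0221 over all tested genes. Such a correlation cannot show whether single genes share a replicate effect, so whether the numbers pair libraries is not settled. The difference in the log2 ratio of Bax to Bcl2 was 0.26 and 0.04 to 0.49 with 1 library left out, always under the control SD of 0.46 except without control replicate 3. The causes of these differences were not tested.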

Other observations

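Several family genes had libraries that stood apart inside a group, a pattern noticed in the data. Among 12093 tested genes with a mean FPKM of at least 1, the highest library was at least 2-fold above the lowest in both groups for 646 (5.34%). Bcl2l1 (2.21-fold in Nf2-knockout and 2.65-fold in control libraries) and Bak1 (2.19-fold and 3.11-fold) were 2 of them. Gsk3b, a kinase gene that marks MCL1 for degradation and was picked out after its values were seen, was low in replicate 2 of both groups, at 61.7, 17.5 and 61.8 CPM in Nf2-knockout and 78.1, 18.9 and 63.8 CPM in control libraries. The libraries apart were replicate 3 for Bcl2l1, replicate 2 for Gsk3b and a mixed set for Bak1.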
